A study of Mus musculus with 30 samples.

Results

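Complex I (NADH:ubiquinone oxidoreductase) is measured here through the nuclear genes whose symbols begin with Nduf. All probe sets whose array annotation gives a single symbol beginning with Nduf were taken, which made 74 probe sets for 39 genes out of 22626 probe sets and 12393 genes with a single-symbol probe set. Another 8 probe sets whose annotation joins an Nduf symbol to a second gene were left out. The rule used symbols only and no measured value. Total RNA was prepared from 5 tissues (salivary, liver, stomach, kidney, brain) of newborn mice (age label neonatal) that were either wild-type or null for ERRγ (Esrrg), all on a mixed SV129/C57BL/6 background, of unstated gender and with no other treatment. Each of the 10 combinations of tissue and genotype had 3 arrays, 30 in all, on the Affymetrix MOE430A array, and each array reports a log2 MAS5 signal per probe set. The arrays of a group are labelled as numbered replicates, and nothing says whether each stands for its own animal; p-values here therefore reflect the spread among these samples alone, possibly a technical one. No label describes how the null allele was made.

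Complex I takes electrons from NADH and passes them to ubiquinone while it pumps protons across the mitochondrial inner membrane. The N module binds NADH, the Q module reduces ubiquinone, and the membrane arm pumps protons; the catalytic core subunits of the N and Q modules are nuclear-encoded, whereas the core of the membrane arm is encoded by mitochondrial DNA and is not among the Nduf genes. The remaining Nduf subunits are accessory subunits, and the Ndufaf genes encode assembly factors that help build the enzyme without being part of it. ERRγ is an estrogen-related receptor, a nuclear receptor with no known natural ligand, known with its relative ERRα and the coactivator PGC-1α as a regulator of nuclear genes for mitochondrial respiration. Kidney tubules and the acid-secreting parietal cells of the stomach are rich in mitochondria. By role, the measured genes were 9 of the N module, 5 of the Q module, 19 of the membrane arm, 5 assembly factors (Ndufaf1, Ndufaf3, Ndufaf4, Ndufaf5 and Ndufaf7), and Ndufa4, which is now counted as a subunit of complex IV. Ndufa4l2 and the other Ndufaf genes are not analysed here.

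Promoter sequences are shown for 4 genes that have a motif match and a null difference that passed the test in a tissue: Ndufaf4, Ndufb7, Ndufb2 and Ndufs5. Ndufaf1, Ndufs3 and Ndufb6 also had a match, but no null difference that passed, and are not shown. A link between match and null difference was not tested. Other genes described below, such as Ndufs8, Ndufa13, Ndufab1 and Ndufa6, had a promoter without a match, which is not shown. Each is the 250 bases before the annotated gene start on the gene's own strand, from RefSeq on GRCm38.p6, and capitals mark the only match to any of the motifs searched. In Ndufaf4 (chr4:24897833-24898082, plus strand) the capitals mark a site for NRF1, a factor known to act at respiratory-chain promoters. In Ndufb7 (chr8:83566508-83566757, plus strand) they mark an ETS site of the kind that GABPA binds. In Ndufb2 (chr6:39592315-39592564, plus strand) and Ndufs5 (chr4:123718187-123718436, minus strand) they mark the core letters of the element bound by estrogen-related receptors, in Ndufs5 on the opposite strand.
Ndufaf4: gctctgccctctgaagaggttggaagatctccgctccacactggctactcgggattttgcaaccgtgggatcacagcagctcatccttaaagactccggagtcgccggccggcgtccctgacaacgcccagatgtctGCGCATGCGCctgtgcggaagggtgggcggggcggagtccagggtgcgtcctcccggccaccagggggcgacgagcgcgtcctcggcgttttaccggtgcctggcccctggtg
Ndufb7: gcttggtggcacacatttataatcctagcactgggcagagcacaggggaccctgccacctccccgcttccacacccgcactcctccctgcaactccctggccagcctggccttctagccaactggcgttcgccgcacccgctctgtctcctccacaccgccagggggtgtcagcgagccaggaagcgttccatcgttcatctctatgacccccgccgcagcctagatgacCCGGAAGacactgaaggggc
Ndufb2: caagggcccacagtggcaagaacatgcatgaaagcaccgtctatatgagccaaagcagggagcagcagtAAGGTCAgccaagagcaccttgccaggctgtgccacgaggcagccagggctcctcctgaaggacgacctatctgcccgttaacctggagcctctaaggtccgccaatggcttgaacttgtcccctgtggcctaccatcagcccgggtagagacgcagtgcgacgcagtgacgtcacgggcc
Ndufs5: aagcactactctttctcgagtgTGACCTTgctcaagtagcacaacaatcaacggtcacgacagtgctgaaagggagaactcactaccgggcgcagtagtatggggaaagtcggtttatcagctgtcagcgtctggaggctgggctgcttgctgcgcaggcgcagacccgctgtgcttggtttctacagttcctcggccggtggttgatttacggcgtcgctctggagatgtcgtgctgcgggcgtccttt

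A promoter was matched for 36 of the 39 genes, and both strands were searched. The estrogen-related receptor element TNAAGGTCA was found in 0 of these 36 and in 1.3% of all 27025 genes with a promoter, and its form TCAAGGTCA in 0 and 0.422%. Its core AAGGTCA, which both longer forms contain, was found in 2 genes, Ndufb2 and Ndufs5 (5.56%, against 4.7% of all genes). The NRF1 site, searched as the letters in capitals in Ndufaf4, was found in 1 gene, Ndufaf4 (2.78%, against 0.877%). The ETS site CCGGAAG was found in 4 genes, Ndufaf1, Ndufb6, Ndufb7 and Ndufs3 (11.1%, against 7.83%). A match describes letters in this window and is not evidence of binding, and the absence of a match says only that the letters are not in this window.

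The Esrrg probe set (1421747_at) was not lower in the null arrays of any tissue. It ranged from 5.93 to 6.03 in wild-type stomach and from 6.39 to 6.56 in null stomach, a difference of 0.49 ± 0.13 (SE; limma, adjusted p = 0.0312), and the groups overlapped in the other 4 tissues. No source here places it inside or outside the deletion, and the genotype labels cannot be checked with it. Array medians lay between 5.8 and 6.08. Tissue labels fitted their markers: the summed neuron markers were at 12.6 to 12.7 in both genotypes of brain, the summed salivary markers at 12.9 to 13.8 in salivary tissue, and the hepatocyte gene Alb at 12.8 to 13.2 in liver. In bulk tissue, fewer cells of a type and less RNA per cell cannot be told apart. Several libraries stood apart from their group. In wild-type stomach Alb was at 5.93, 10.25 and 11.9 in replicates 1, 2 and 3, against 6.19 to 7.06 in null stomach, and in wild-type salivary tissue the brown fat gene Ucp1 was at 5.99, 4.04 and 12.14, against 11.31, 12.75 and 11.02 in null tissue. In brain the summed striated muscle markers were at 6.99 to 9.99 in the null and 6.95 to 7.18 in wild-type. The summed salivary markers there were at 4.65 to 8.01 and 4.78 to 5.46. The gap between the 3′ and 5′ Gapdh control probe sets, which grows when RNA is shortened, was 2.6 ± 0.45 (SD, n = 3) in wild-type and 3.77 ± 0.22 in null stomach, without overlap.

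In wild-type tissue most Nduf genes differed between tissues by modest amounts, and no tissue was highest for the whole complex. A probe set was tested where its mean reached the 40th percentile in at least 1 tissue, which 70 of the 74 did. The highest and lowest tissue means of a probe set lay 0.24 to 1.83 apart on the log2 scale (median 0.60), and 51 of 70 differed between the 5 tissues (limma F test, adjusted p below 0.05), where 86.8% of all tested probe sets did. With each gene represented by its brightest probe set, the level was highest in liver for 12 genes, kidney for 11, salivary tissue for 8, brain for 7 and stomach for 1, and it was lowest in brain for 16.

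Brain had Nduf probe sets on both sides of the other tissues, with the assembly factors Ndufaf5 and Ndufaf3 among the higher ones. Of the 70 probe sets, 25 were lower and 10 higher in brain than in the mean of the other 4 tissues, where 33% and 32.2% of all probe sets were. The median difference from the other tissues was -0.11, and 0.011 over all tested probe sets. Among the brightest probe sets of each gene, the largest negative differences were those of Ndufa6, an accessory subunit of the N module, at 8.30 ± 0.06 (SD, n = 3) in brain against 8.79 to 9.44 in the other tissues, and of Ndufa2, at 8.92 ± 0.03 against 9.49 to 10.08. The assembly factor Ndufaf5, a methyltransferase-like protein that modifies the core subunit Ndufs7, had the widest range of the 70 tested Nduf probe sets. Its 3 arrays were at 7.69, 7.82 and 7.83 in brain, 7.15, 7.04 and 6.82 in kidney, 6.51, 6.61 and 6.45 in stomach, 5.9, 6.52 and 6.6 in salivary tissue, and 5.81, 5.55 and 6.48 in liver. All brain arrays stood above those of every other tissue, 1.33 ± 0.17 (SE) above the mean of the others (limma, adjusted p = 5.82e-06), whereas no step from kidney down to liver in that order passed the test (adjusted p = 0.109 to 0.531). The dimmer probe set of Ndufaf4 (1435333_at) followed, 1.10 ± 0.13 above the others (adjusted p = 1.67e-06), but the brighter one (1427997_at) was level in brain (-0.08 ± 0.08, adjusted p = 0.361), so the probe sets of this gene do not give the same order of tissues. Ndufc2, of the membrane arm, was 0.79 ± 0.11 higher in brain by its dimmer probe set 1416366_at (adjusted p = 1.19e-05). Its brighter one (1455036_s_at) was 0.13 ± 0.05 higher (limma, adjusted p = 0.0389), with brain at 11.23 below liver at 11.25 and salivary tissue at 11.35.

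In kidney the core subunit Ndufs1 stood above the other tissues. Of the 70 probe sets 19 were higher and 1 lower than in the other tissues, where 24.8% and 17% of all probe sets were, with a median difference of 0.16 (0.053 over all). Ndufs1, the largest core subunit, which carries iron-sulphur clusters of the N module, was at 9.8, 9.88 and 9.8 in kidney. Brain arrays were at 9.07, 9.19 and 8.89, stomach at 9.01, 8.71 and 9.05, liver at 9.62, 9.21 and 9.2, and salivary tissue at 9.04, 8.84 and 9.53. Kidney arrays stood above all others, by 0.71 ± 0.13 over the mean of the other tissues (adjusted p = 0.00035), and the order of the remaining 4 (liver, salivary, brain, stomach) had no step between neighbours that passed the test (adjusted p = 0.296 to 0.671). Ndufb7 (1448331_at), a membrane-arm subunit on the intermembrane-space side, was 0.61 ± 0.08 higher in kidney (adjusted p = 1.76e-05), and Ndufaf7, a methyltransferase of complex I assembly, 0.61 ± 0.15 (adjusted p = 0.00477). The brighter probe set of Ndufb7 (1416417_a_at) did not pass in kidney (0.15 ± 0.08, adjusted p = 0.145). The split of 19 higher and 1 lower depended on the scaling. With array medians made equal it was 13 higher and 7 lower, and without replicate 1 of wild-type kidney 7 probe sets were higher.

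Liver had 20 Nduf probe sets higher and 12 lower, where 24.1% and 40% of all probe sets were, with a median of 0.12 against -0.16 over all tested probe sets. With array medians made equal the split was 32 and 8, and after quantile normalization 17 and 15. Ndufa13, an accessory subunit that joins the membrane arm to the Q module, was at 11.61, 11.24 and 11.21 in liver and at 10.51 to 10.78 on average in the other tissues, a difference of 0.71 ± 0.13 (adjusted p = 0.000173). Ndufa2 was higher by 0.60 ± 0.07 (adjusted p = 2.96e-06). A dim probe set of Ndufa7 (1422976_x_at) was higher by 0.68 ± 0.15 (adjusted p = 0.0013), whereas its brightest (1450818_a_at) differed by 0.005 ± 0.072 (adjusted p = 0.958). On the lower side stood the assembly factors Ndufaf5, at -0.96 ± 0.17 (adjusted p = 0.000156), and Ndufaf7, at -0.85 ± 0.15 (adjusted p = 0.000156).

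Salivary tissue had 12 probe sets higher and 13 lower (24.8% and 21.9% of all), and stomach 2 higher and 10 lower (20.3% and 22.4%). Ndufb5, of the membrane arm, was higher in salivary tissue by both probe sets, by 0.71 ± 0.12 (1448589_at, adjusted p = 0.000223) and 0.64 ± 0.17 (1417102_a_at, adjusted p = 0.00545), and a dim probe set of Ndufs8 (1434212_at) by 0.59 ± 0.12 (adjusted p = 0.000714). The brightest probe set of Ndufs8 (1455283_x_at) was lower there, at -0.32 ± 0.12 (adjusted p = 0.038), as were its probe sets 1423907_a_at, 1434213_x_at and 1434579_x_at (-0.42 to -0.28), so this gene has no single direction in salivary tissue. The higher probe sets of stomach were Ndufb7 (1448331_at, 0.38 ± 0.08, adjusted p = 0.0011) and Ndufb9 (1452184_at, 0.33 ± 0.10, adjusted p = 0.0182), both genes of the membrane arm. The brighter probe sets of these 2 genes did not pass in stomach. Ndufb7 was at 0.14 ± 0.08 (1416417_a_at, adjusted p = 0.153) and Ndufb9 at 0.08 ± 0.16 (1436803_a_at, adjusted p = 0.71). Replicate 3 of wild-type salivary tissue, the array with Ucp1 at 12.14, moved these counts: without it salivary tissue had 5 higher and 26 lower, kidney 30 higher and stomach 8 higher. The probe sets that varied least between tissues were those of Ndufab1 (1428160_at, means of 6.61 to 6.85), Ndufv2 (1452692_a_at, 10.37 to 10.60) and Ndufa9 (9.47 to 9.74). Another probe set of Ndufv2 (1428179_at) did differ between tissues, with means from 9.66 in salivary tissue to 10.44 in kidney (limma F test, adjusted p = 0.0012).

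**Figure D1:**
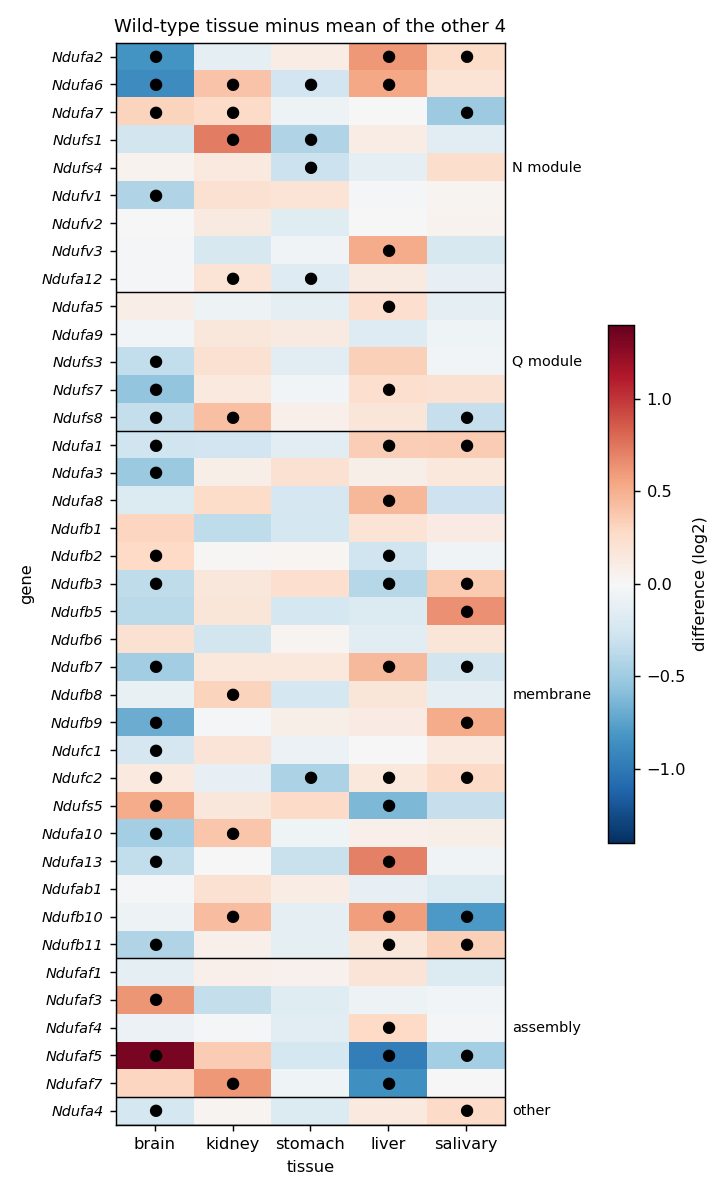
Difference of each wild-type tissue from the mean of the other 4 on the log2 scale (colour) for 39 Nduf genes (rows, grouped by role, 1 probe set a gene); dots mark adjusted p below 0.05 (limma). Brain carries 16 genes with a negative dot, and Ndufaf5 spans the widest range, from high in brain to low in liver.

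The null stomach had the most Nduf probe sets past the test of the 5 tissues, and all of them were lower. Of 70 tested probe sets 33 were lower and 0 higher (47.1% lower), where 12.2% of all tested probe sets were lower and 11.2% higher; 45 of the 70 had an unadjusted p below 0.05. The median difference was -0.37 on the log2 scale, against 0.033 over all tested probe sets, and 58 of the 70 were negative. In 47 of them (67.1%) all null arrays lay below all wild-type arrays, where 20.4% of all probe sets did so, and 3 (4.29%) lay wholly above, where 22.4% did. By the brightest probe set of each gene, 16 of 39 genes were lower, and 24 by any of their probe sets. The brightest probe sets that were lower belonged to 1 of 9 N module genes, 2 of 5 Q module genes, 9 of 19 membrane-arm genes, 3 of 5 assembly factors and Ndufa4.

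**Figure D2:**
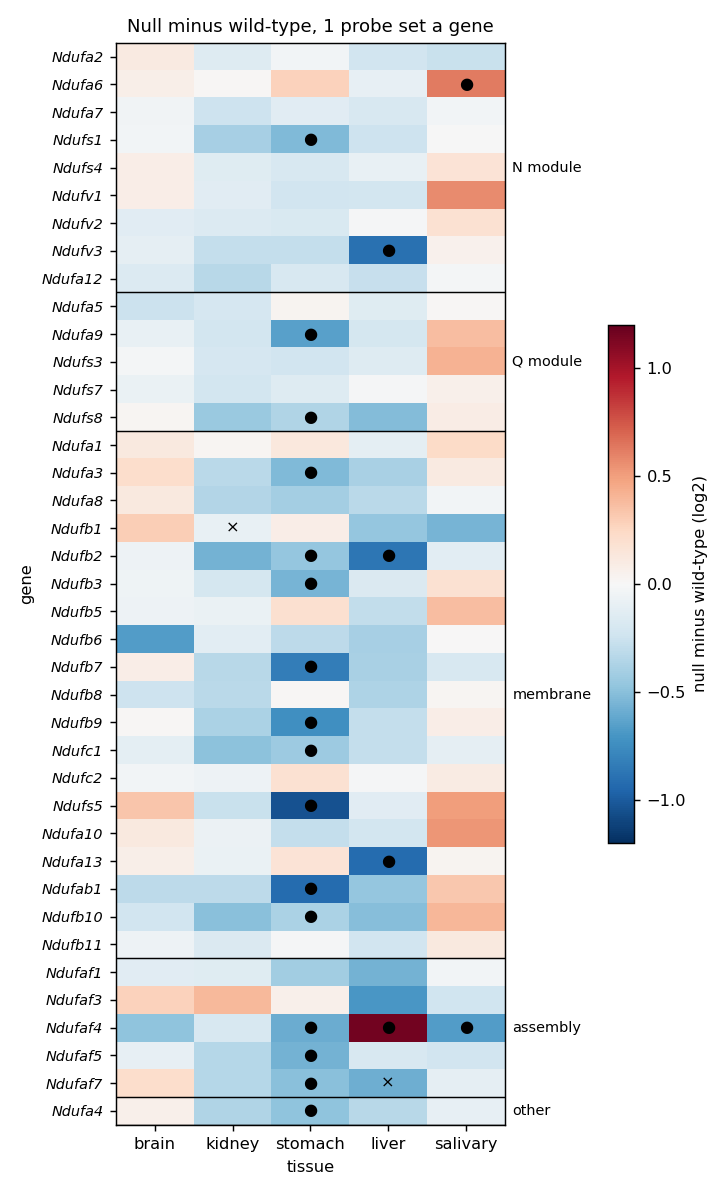
Null minus wild-type difference on the log2 scale (colour) for 39 Nduf genes (rows, grouped by role, 1 probe set a gene) in 5 tissues; dots mark adjusted p below 0.05 (limma) and crosses genes not tested in that tissue. Stomach carries 16 dots, all on negative values, while Ndufaf4 is negative in stomach and salivary tissue and positive in liver.

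The largest fall in stomach was that of the membrane-arm subunit Ndufb7. Its probe set 1448331_at was at 8.32, 8.51 and 8.33 in wild-type stomach and 6.74, 7.31 and 6.97 in the null. The groups were far apart, by -1.38 ± 0.16 (SE; limma, adjusted p = 0.0016), and the brighter probe set 1416417_a_at fell by 0.83 (adjusted p = 0.00527). Ndufs5, an accessory subunit on the same side of the membrane, was at 6.58, 6.61 and 6.86 in wild-type stomach and 5.49, 5.82 and 5.61 in the null. Again no null array reached a wild-type one, and the difference was -1.04 ± 0.16 (adjusted p = 0.00415). Ndufab1, the mitochondrial acyl carrier protein, which is also a complex I subunit, was at 8.64, 8.36 and 8.62 against 7.51, 7.9 and 7.45. These values are from its brightest probe set (1428159_s_at), which fell by 0.92 (SE 0.15, adjusted p = 0.00542). Its other tested probe set (1428160_at) overlapped between genotypes and did not pass (-0.12 ± 0.15, adjusted p = 0.566).

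Other membrane-arm genes that fell in stomach by their brightest probe set were Ndufb9 (-0.73 ± 0.10, adjusted p = 0.00331), Ndufb3 (-0.56 ± 0.13), Ndufa3 (-0.53 ± 0.10), Ndufb2 (-0.47 ± 0.10), Ndufc1 (-0.43 ± 0.10) and Ndufb10 (-0.38 ± 0.12), all with adjusted p at or below 0.0471. Ndufb9 is a small LYR-motif subunit. Its arrays were at 10.34, 10.47 and 10.5 in wild-type stomach and 9.81, 9.74 and 9.56 in the null by that probe set (1436803_a_at), without overlap. Not every membrane-arm gene moved this way. Ndufa13, Ndufb5, Ndufa1 and Ndufc2 had small positive differences of 0.12 to 0.19 that did not pass the test by their brightest probe set, although Ndufc2 was lower by its dimmer one (1416366_at, -0.63 ± 0.17, adjusted p = 0.0319).

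Among the core subunits in stomach, Ndufs1 fell. Its wild-type arrays were at 9.01, 8.71 and 9.05 and its null arrays at 8.3, 8.62 and 8.26. The difference was -0.53 ± 0.14 (SE, adjusted p = 0.0292). Ndufs8, a Q module core subunit that carries iron-sulphur clusters, fell by 0.36 at its brightest probe set (SE 0.11, adjusted p = 0.0413), from 9.96 ± 0.05 (SD, n = 3) to 9.60 ± 0.16. Ndufv1, which holds the flavin that accepts electrons from NADH, was split between its probe sets. The probe set 1415967_at was at 9.34, 9.28 and 9.4 in wild-type stomach and 8.12, 8.58 and 8.35 in the null, a clear gap of -0.99 ± 0.13 (adjusted p = 0.00284), while the brightest, 1415966_a_at, differed by -0.23 ± 0.09 (adjusted p = 0.0965). Ndufs7, which carries the last iron-sulphur cluster before ubiquinone, was likewise lower at 1451312_at (-0.72 ± 0.12, adjusted p = 0.00496) and not at its brightest probe set (-0.16 ± 0.12, adjusted p = 0.371). Ndufv2, at -0.18 ± 0.09 (adjusted p = 0.175), and Ndufs3, at -0.23 ± 0.09 (adjusted p = 0.11), did not pass by their brightest probe sets. Both dimmer probe sets of Ndufv2 were lower, by -0.63 ± 0.15 (1428179_at, adjusted p = 0.0201) and -0.53 ± 0.13 (1438159_x_at, adjusted p = 0.0226).

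The accessory subunits of the Q and N modules gave a mixed picture in stomach. Ndufa9, which sits near the ubiquinone site, fell by 0.65 (SE 0.13, adjusted p = 0.0103). The probe set 1422976_x_at of Ndufa7 was at 7.06, 6.99 and 6.88 in wild-type stomach and 6.22, 6.1 and 5.89 in the null. It did not overlap between genotypes and fell by 0.91 (SE 0.14, adjusted p = 0.00476). The brightest probe set of this gene (1450818_a_at) differed by -0.13 ± 0.10 (adjusted p = 0.367), and 2 of its 5 probe sets passed. Ndufa6 lay on the other side. Its arrays were at 8.82, 8.8 and 8.76 in wild-type stomach and 9.23, 8.91 and 9.08 in the null, wholly higher but not past the test (0.28 ± 0.11, adjusted p = 0.103).

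Of the assembly factors in stomach, Ndufaf4, Ndufaf5 and Ndufaf7 fell. Ndufaf5 was at 6.51, 6.61 and 6.45 in wild-type stomach and 6.3, 5.81 and 5.76 in the null, a difference of -0.57 ± 0.18 (adjusted p = 0.0464). Ndufaf7 fell from 6.15 ± 0.08 (SD, n = 3) to 5.65 ± 0.15 (adjusted p = 0.0466). Ndufaf1, which acts on membrane-arm intermediates, missed the threshold at -0.41 ± 0.13 (adjusted p = 0.0513), and Ndufaf3 was level at 0.06 ± 0.14 (adjusted p = 0.763). Ndufa4, the complex IV subunit, fell from 9.38 ± 0.06 to 8.90 ± 0.16 (adjusted p = 0.0185).

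Probe sets of the same gene often differed in size in stomach. Among the 19 genes with at least 2 tested probe sets, 14 had only negative differences and 5 had both signs, 16 were lower by any probe set and 6 by all of them. In 12 of the 19 the brightest probe set had the least negative difference. The 12 positive probe sets in stomach included a dim probe set of Ndufs8 (1434212_at, 0.17 ± 0.15, adjusted p = 0.436), against the fall at its brightest.

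The calls in stomach moved with RNA measures that also differed between the genotypes. The Gapdh gap did not overlap between wild-type (2.28 to 3.11) and null (3.53 to 3.97), and with it as a covariate 0 of 70 Nduf probe sets passed (17 at an unadjusted p below 0.05), as did 2 of all 13576, while the median stayed at -0.39 with 61 negative. Without wild-type replicates 2 and 3, the arrays of high Alb, which leaves a lone wild-type array assumed to vary like the null arrays, 0 Nduf probe sets and 28 of all passed, with 30 Nduf probe sets at an unadjusted p below 0.05 and a median of -0.42. With Alb as a covariate 8 passed. The parietal cell markers fell as well, 4 of 4, with their summed level at 12.1 to 12.2 in wild-type and 9.07 to 9.28 in null stomach. Atp4a, the catalytic subunit of the gastric proton pump, went from 10.46 ± 0.11 to 5.43 ± 0.13, at the level of tissues without parietal cells (5.34 to 5.95). Of the hepatocyte markers 2 of 6 tested were lower in null stomach, with a summed level of 11.3 to 13.8 in wild-type and 11 to 11.6 in null, and of the striated muscle markers 2 of 2 tested, at 8.32 to 8.62 and 7.35 to 7.66. The part of parietal cell number in the fall of the Nduf genes was not tested.

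In kidney most Nduf differences were also negative but small, and a single probe set passed the test. Of 69 tested probe sets 62 were negative, with a median of -0.22 against 0.013 over all. The count passing was 1 lower and 0 higher, where 0.368% and 0.412% of all probe sets passed, and 29 of the 69 had an unadjusted p below 0.05. All null arrays lay below all wild-type arrays in 28 (40.6%), where 9.81% of all probe sets did, and above in 1 (1.45%, against 10.1%). The probe set that passed was 1416834_x_at of Ndufb2, a small membrane-arm subunit. Wild-type kidneys read 8.35, 8.17 and 8.2 and null kidneys 7.4, 7.73 and 7.28, without overlap, and it fell by 0.77 (SE 0.14, adjusted p = 0.0403). This call was lost without any kidney array but null replicate 2, and without that array 6 Nduf probe sets passed.

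Next by p-value in kidney were Ndufc1 (1416285_at), at -0.57 ± 0.11 (adjusted p = 0.0514), and the brighter probe set of Ndufb2, at -0.57 ± 0.13 (adjusted p = 0.075). Among the core subunits Ndufs8 differed by -0.44 ± 0.11 (adjusted p = 0.0983), from a wild-type mean of 10.23 ± 0.08 (SD, n = 3) to a null mean of 9.79 ± 0.17, and Ndufs1 by -0.40 ± 0.10 (adjusted p = 0.0991), from 9.83 ± 0.05 to 9.43 ± 0.12. Ndufs3, Ndufs7, Ndufv1 and Ndufv2 differed by -0.22 to -0.13 and did not pass. The assembly factors Ndufaf5 and Ndufaf7 were each at -0.34 ± 0.14 (adjusted p = 0.296 and 0.295), Ndufaf4 at -0.19 ± 0.12 and Ndufaf1 at -0.14 ± 0.15, while Ndufaf3 was at 0.39 ± 0.17 (adjusted p = 0.319). Ndufa4 was at -0.36 ± 0.10 (adjusted p = 0.141). The Gapdh gap was 2.67 in both genotypes. Of the 4 kidney tubule markers tested, 1 was lower: Umod, a product of the thick ascending limb, fell by 1.02 (SE 0.17, adjusted p = 0.0326), and the summed marker level of 12 to 12.3 in wild-type kidney stood against 11.7 to 11.8 in the null. The part of tubule cells in the Nduf values was not tested.

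**Figure D3:**
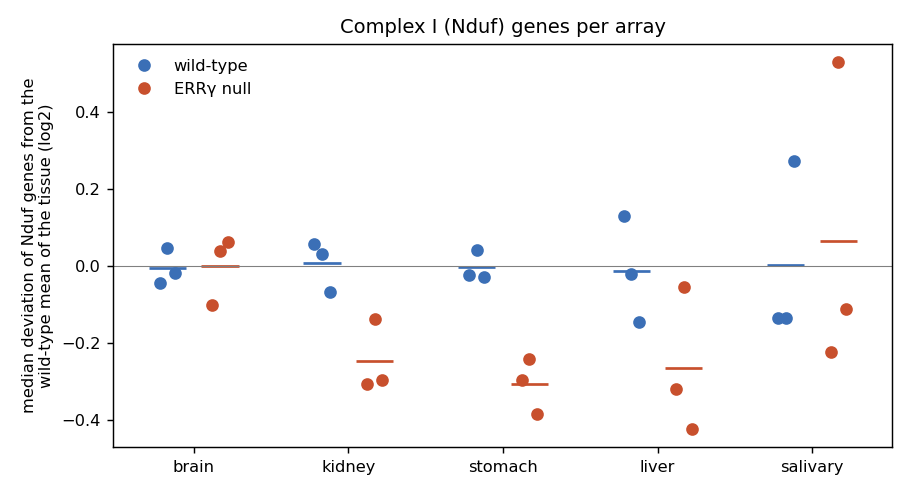
Median deviation of the Nduf genes tested in a tissue (38 in kidney and liver, 39 elsewhere) from its wild-type mean (log2, 1 probe set a gene) for each of the 30 arrays. Points are arrays, bars group means, colours genotypes. Null arrays lie below all wild-type arrays in kidney and stomach, overlap them in liver and brain, and spread from -0.22 to 0.53 in salivary tissue.

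In liver Nduf subunits leaned lower in the null, and an assembly factor rose. Of 69 tested probe sets 65 were negative (median -0.29, against 0.027 over all), 5 were lower and 2 higher, where 3.46% and 3.47% of all probe sets were, and 22 of the 69 had an unadjusted p below 0.05. All null arrays lay below the wild-type arrays in 23 (33.3%, against 12.6% of all) and above them in 2 (2.9%, against 15.3%). The 5 that fell belonged to Ndufs8, Ndufa13, Ndufv3 and Ndufb2, and both that rose to Ndufaf4.

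The probe set 1423907_a_at of Ndufs8 was at 9, 8.91 and 8.9 in wild-type liver and 7.9, 7.56 and 7.33 in the null. It fell by 1.34 (SE 0.17, adjusted p = 0.00435). The other 5 probe sets of this core subunit were all negative, from -0.69 to -0.15, and did not pass, the brightest at -0.52 ± 0.14 (adjusted p = 0.0559). Ndufa13 was at 11.61, 11.24 and 11.21 in wild-type liver and 10.23, 10.59 and 10.46 in the null, a fall of 0.93 (SE 0.15, adjusted p = 0.00988). The null mean of 10.43 lay next to the wild-type means of the other tissues (10.51 to 10.78). Ndufv3, a short accessory subunit of the N module, was at 10.74, 10.53 and 10.33 against 9.47, 9.88 and 9.56, without overlap, and fell by 0.90 (SE 0.16, adjusted p = 0.0142). Ndufb2 fell by both probe sets, by 0.86 (1448483_a_at, SE 0.16, adjusted p = 0.015) and 0.69 (1416834_x_at, SE 0.17, adjusted p = 0.0452).

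None of the other core subunits passed the test in liver at its brightest probe set: Ndufs7 was at -0.01 ± 0.17, Ndufv2 at -0.02 ± 0.15, Ndufs3 at -0.15 ± 0.17, Ndufv1 at -0.22 ± 0.15 and Ndufs1 at -0.25 ± 0.16, with adjusted p between 0.399 and 0.973. Among assembly factors Ndufaf3, which acts together with Ndufaf4 early in assembly, was at 6.44 ± 0.16 in wild-type and 5.74 ± 0.11 in null liver (SD, n = 3) and just missed the threshold (-0.70 ± 0.19, adjusted p = 0.0545). Ndufaf1 was at -0.56 ± 0.20 (adjusted p = 0.13) and Ndufaf5 at -0.19 ± 0.28, and Ndufaf7 was too dim to be tested in liver. Ndufa4 was at -0.33 ± 0.15 (adjusted p = 0.22). The count of lower probe sets ran from 2 to 12 as single liver arrays were left out: it was 2 without wild-type replicate 1, wild-type replicate 2 or null replicate 3, 3 without wild-type replicate 3 or null replicate 1, and 12 without null replicate 2. The Gapdh gap was 4.51 ± 0.28 in wild-type and 4.06 ± 0.13 in null liver without overlap, and with it as a covariate 0 Nduf probe sets passed (19 at an unadjusted p below 0.05), as did 0 of all 13577, with a median of -0.41.

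In salivary tissue the Nduf genes did not move together. Of 70 tested probe sets 47 were positive, with a median of 0.095 against 0.017 over all, 1 was lower and 1 higher, where 4.72% and 3.5% of all were, and 5 had an unadjusted p below 0.05. Groups were separate in 2 downward (2.86%, against 15.1% of all) and 2 upward (2.86%, against 13.1%). Ndufa6 was at 9.12, 8.98 and 9.37 in wild-type tissue and 9.68, 9.95 and 9.71 in the null, and rose by 0.62 (SE 0.15, adjusted p = 0.0338). Ndufaf4 (1427997_at) was at 7.75, 7.92 and 7.84 against 7.21, 7.36 and 6.92, and fell by 0.67 (SE 0.16, adjusted p = 0.036). The next smallest p-value was that of Ndufa10, at 0.53 ± 0.19 (adjusted p = 0.127).

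The core subunits in salivary tissue had wide spreads, such as 9.84 ± 0.42 and 10.40 ± 0.55 (SD, n = 3) for wild-type and null Ndufv1 (0.57 ± 0.28, adjusted p = 0.269). Ndufs3 was at 0.42 ± 0.28, Ndufv2 at 0.18 ± 0.20, Ndufs8 at 0.09 ± 0.29, Ndufs7 at 0.06 ± 0.19 and Ndufs1 at 0.00 ± 0.29, none past the test. The assembly factors Ndufaf3, Ndufaf5, Ndufaf7 and Ndufaf1 were between -0.24 and -0.03, and Ndufa4 at -0.10 ± 0.23. The arrays with the highest median deviation of Nduf genes, 0.27 in wild-type replicate 3 and 0.53 in null replicate 2, were those with the highest Ucp1 of their group (12.14 and 12.75). The other 4 arrays did not follow Ucp1: null replicate 1, with Ucp1 at 11.31, had the lowest deviation (-0.22), below the -0.13 of both wild-type arrays with Ucp1 at 5.99 and 4.04. The summed brown fat markers (6 on the array, 0 passing the test) were at 10.6 to 13.6 in wild-type and 13 to 14.2 in null tissue. With Ucp1 as a covariate the median turned to -0.23, and without the 2 wild-type arrays of low Ucp1, replicates 1 and 2, to -0.20, with 0 Nduf probe sets passing in either case (3 and 1 at an unadjusted p below 0.05). The summed striated muscle markers (7 on the array, 1 tested, 0 passing) were at 6.52 to 6.87 in wild-type and 8.45 to 9.47 in null tissue. The part of brown fat or muscle in the salivary values was not tested further.

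**Figure D4:**
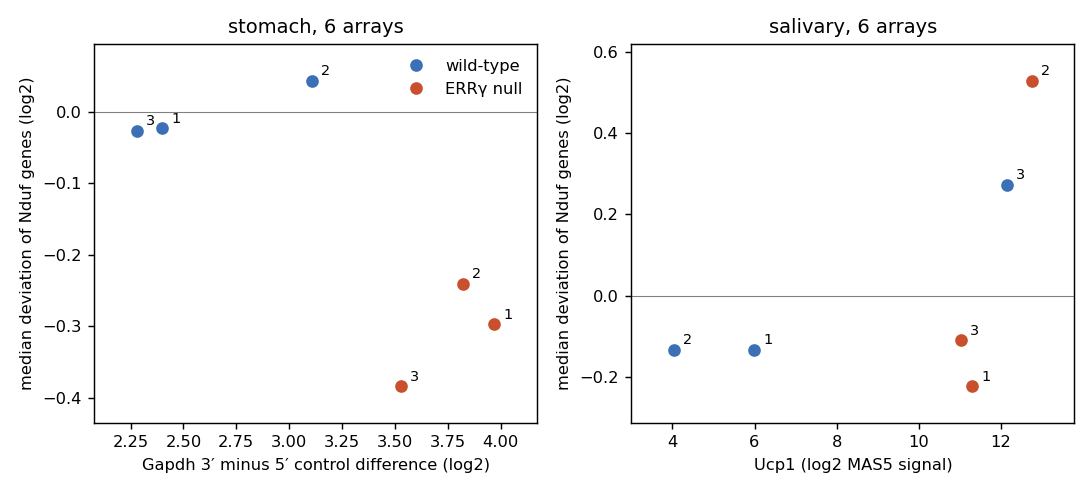
Median deviation of the 39 Nduf genes from the wild-type mean (log2, y axis) in the 6 stomach arrays against the Gapdh 3′ minus 5′ gap (left) and in the 6 salivary arrays against Ucp1 (right, log2 signal); numbers are replicates and colours genotypes. Null stomach arrays have both the wider gaps (3.53 to 3.97) and the lower deviations, and the salivary arrays with Ucp1 at 12.14 and 12.75 have the highest deviations.

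In brain no Nduf probe set passed. Of 69 tested, 36 were negative and 33 positive (median -0.01, against 0.013 over all), 0 were called by limma in either direction, as were 0% of all tested probe sets, and 5 had an unadjusted p below 0.05. Groups were separate in 6 downward (8.7%, against 7.53% of all) and 6 upward (8.7%, against 8.14%). The smallest p-values belonged to Ndufaf4, at -0.50 ± 0.15 (1435333_at, adjusted p = 0.382) and -0.48 ± 0.15 (1427997_at, adjusted p = 0.383), followed by Ndufb9 (1452184_at) at 0.33 ± 0.11 (adjusted p = 0.395). The 6 core subunits analysed lay between -0.13 and 0.08, Ndufaf1 at -0.14 ± 0.15, Ndufaf3 at 0.27 ± 0.14, Ndufaf5 at -0.10 ± 0.14, Ndufaf7 at 0.21 ± 0.14 and Ndufa4 at 0.06 ± 0.09.

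Averaged over the 5 tissues, 22 of 70 Nduf probe sets were lower and 1 higher in the null (limma, joint fit of all 30 arrays), where 11.1% and 11.4% of all tested probe sets were, and 41 had an unadjusted p below 0.05. The median average was -0.16, against 0.027 over all. Ndufb2 led with both probe sets, at -0.51 ± 0.09 (SE; 1416834_x_at, adjusted p = 0.000137) and -0.42 ± 0.08 (1448483_a_at, adjusted p = 0.000563), and it was negative in all 5 tissues. Its dimmer probe set differed by -0.77 in kidney, -0.73 in stomach, -0.69 in liver, -0.18 in brain and -0.18 in salivary tissue, so that Ndufb2 was the gene called lower in the most tissues, 3. Ndufb7 (1448331_at) followed at -0.44 ± 0.09 (adjusted p = 0.00109) and Ndufs8 (1423907_a_at) at -0.44 ± 0.10. The probe set that was higher was that of Ndufa6 (0.18 ± 0.05, adjusted p = 0.0108). By sign, 29 of 39 genes were negative in kidney, stomach and liver alike, 7 in all 5 tissues, and 17 in those 3 tissues but positive in salivary tissue. The count of lower probe sets was 6 without stomach, 10 without liver, 12 without kidney and 39 without salivary tissue, and that of differing ones below was 6 without stomach and 9 without liver.

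The size of the null difference itself differed between tissues for 16 of 70 probe sets (F test in the joint fit, adjusted p below 0.05), where 15.3% of all did, and 30 had an unadjusted p below 0.05. Ndufaf4 led by a wide margin (1427997_at, adjusted p = 6.26e-06). Its wild-type and null arrays were at 8.08, 8.07 and 8.09 against 9.56, 8.89 and 9.26 in liver, and at 7.67, 7.78 and 7.77 against 7.02, 7.31 and 7.09 in stomach. In brain they were at 7.6, 7.97 and 7.8 against 7.07, 7.33 and 7.52, and in kidney at 7.84, 7.86 and 7.82 against 7.62, 7.79 and 7.53. In liver every null array was higher, by 1.16 ± 0.18 (adjusted p = 0.00845), and in the other 4 tissues every null array was lower than every wild-type array, past the test in stomach (-0.60 ± 0.12, adjusted p = 0.0121) and salivary tissue. The second probe set gave the same directions: 1435333_at rose by 0.87 in liver (SE 0.16, adjusted p = 0.0173) and fell by 1.02 in stomach (SE 0.19, adjusted p = 0.00862), and its difference between tissues had an adjusted p of 0.000459.

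**Figure D5:**
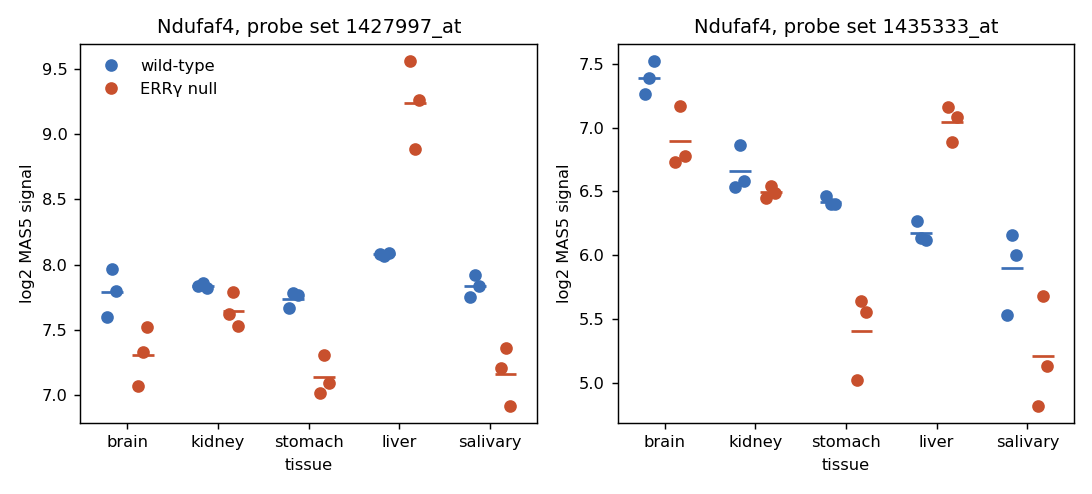
Log2 MAS5 signal of the 2 Ndufaf4 probe sets (panels) in 5 tissues; points are arrays, bars group means of 3 arrays, colours genotypes. The null means lie above the wild-type means in liver, by 1.16 and 0.87, and below them in the other 4 tissues.

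Next were Ndufb9 (1452184_at, adjusted p = 0.00391), with -0.87 in stomach against 0.33 in brain and 0.31 in salivary tissue, and Ndufa13 (adjusted p = 0.004), with -0.93 in liver against 0.16 in stomach and -0.08 to 0.07 elsewhere. The brighter probe set of Ndufb9 (1436803_a_at) did not pass this F test (adjusted p = 0.217). It was at -0.73 in stomach, 0.01 in brain and 0.08 in salivary tissue.

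Genes that act with complex I gave a setting for these values, from lists of respiratory-chain, citric acid cycle and regulator genes (1 probe set a gene). In stomach 5 of 9 complex III genes were lower and 0 higher (median -0.50), among them the core protein Uqcrc1 (-1.03 ± 0.14, limma, adjusted p = 0.00306). ATP synthase had 7 of 15 genes lower and 0 higher (median -0.36), and complex II 1 of 6 lower and 0 higher (median -0.20). A list of other electron carriers, ubiquinone synthesis genes and Nnt had 5 of 9 lower and 0 higher (median -0.41). Complex IV stood otherwise, with 1 lower and 2 higher of 10 (median 0.15), and the citric acid cycle had 5 lower and 1 higher of 13 (median -0.29). These medians stand beside 0.033 over all probe sets, and the shares beside 12.2% lower and 11.2% higher. Complex I assembly factors of other names had 2 of 8 lower in stomach, Dmac1 (-0.44 ± 0.11, adjusted p = 0.0214) and Tmem70 (-0.52 ± 0.16, adjusted p = 0.0464), and 1 of 7 in liver, Aifm1 (-0.82 ± 0.19, adjusted p = 0.0338). Atp5g1, a c-ring gene of ATP synthase, was the gene of these lists called lower in kidney, stomach, liver and salivary tissue (-0.71, -0.86, -0.75 and -1.40).

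Among regulators of mitochondrial genes, 4 of 13 tested were higher in null liver and 0 lower, where 3.47% and 3.46% of all probe sets were. Ppargc1a, the gene of PGC-1α, went from 7.16 ± 0.32 (SD, n = 3) to 9.90 ± 0.56, a rise of 2.74 ± 0.27 (SE; limma, adjusted p = 0.00193), Ppargc1b rose by 1.98 ± 0.30 (adjusted p = 0.00745), Esrra, the gene of ERRα, by 1.01 ± 0.18 (adjusted p = 0.0157) and Ppara by 0.71 ± 0.18 (adjusted p = 0.0426). These rises stood beside negative differences in 65 of 69 Nduf probe sets of the same livers. In stomach Ppargc1a rose by 0.96 ± 0.29 (adjusted p = 0.0456) and, with the Esrrg probe set, made 2 higher of 12 tested, while Pprc1 (-0.47 ± 0.14, adjusted p = 0.037) and Gabpb1, a partner of GABPA (-0.58 ± 0.16, adjusted p = 0.0338), were lower. Of all probe sets tested in stomach, 11.2% were higher and 12.2% lower. None of the 12 tested in kidney and none of the 13 in salivary tissue passed, with Ppargc1a at 0.56 ± 0.12 (adjusted p = 0.0646) and 1.06 ± 0.36 (adjusted p = 0.112).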

How the data were processed

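The values are those the authors deposited, log2 MAS5 signals per probe set, with MAS5 named per the submitters' processing notes and no version given. On the linear scale the trimmed mean of each array, leaving out 2% at either end, was 150, so arrays were already scaled. Array control probe sets (64) were set aside. Array annotation supplied the gene symbols. In each tissue, probe sets whose mean over 6 arrays reached the 40th percentile (5.25 to 5.39) were fitted with limma 3.58.1 in R 4.3.3 (lmFit, eBayes with trend), null minus wild-type, and p-values were adjusted by Benjamini-Hochberg over all tested probe sets, with a threshold of 0.05. A joint fit of 10 groups gave the average and the difference between tissues, and a fit of the wild-type arrays gave tissue levels. The method was checked on simulated data.

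The members, lists and tests were chosen with earlier results of these data known. Named genes were the core subunits analysed, Ndufa4, the Ndufaf genes, the 6 largest falls and rises that passed in each tissue (the 3 smallest p-values where fewer than 3 passed), the 4 smallest p-values of the average and of the difference between tissues, the 3 largest positive differences of each wild-type tissue and the 3 smallest ranges. Other members were named after their values were seen. A gene with several probe sets was counted by the brightest over 30 arrays; 19 genes have 1 probe set and 20 have more, at most 6, and 20 of the 74 probe sets end in _x_at or _s_at and may share signal with related transcripts. Probe sets not tested in any tissue were 4. Marker and list levels are log2 of summed signal. Replicate numbers were not taken as pairs: deviations of same-numbered arrays correlated from -0.239 to 0.143. The number of arrays limits the precision. An exact permutation test of 3 against 3 arrays cannot go below 0.1.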

Additional observations from a re-analysis of the deposited data

Results flagged for a closer look

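In 16 Nduf probe sets the null minus wild-type difference varied between the 5 tissues (F test in limma's joint fit, adjusted p below 0.05). Both probe sets of Ndufaf4 were among them, with adjusted p of 6.26e-06 and 0.000459, positive in liver and negative in the other 4 tissues. In the membrane arm, Ndufb9 (1452184_at, 0.00391), Ndufb7 (1448331_at, 0.00578) and Ndufs5 (0.0175) were most negative in stomach, Ndufa13 (0.004) was most negative in liver, and Ndufa10 (0.0254) ranged from -0.29 in stomach to 0.53 in salivary tissue. In the N module, Ndufv1 (1415967_at, 0.0215) ranged from -0.99 in stomach to 0.56 in salivary tissue, Ndufv3 (0.0425) and both varying Ndufa7 probe sets (1422976_x_at, 0.021, and 1428360_x_at, 0.0332) were most negative in liver, and Ndufa6 (0.0124) was most positive in salivary tissue. In the Q module, Ndufs8 varied by 1423907_a_at (0.0161), most negative in liver, and by 1434213_x_at (0.0327), at -0.66 in both stomach and liver, and Ndufa9 (0.0453) was most negative in stomach. The assembly factor Ndufaf3 (0.0139) ran from 0.39 in kidney to -0.70 in liver.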

How the results depend on the processing

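The naming rule gave 22 single probe-set calls of the null within a tissue: 12 in stomach, 7 in liver, 2 in salivary tissue and 1 in kidney. Other stomach calls named in the text, such as those of Ndufa9 and Ndufb9, were not followed singly. None of the 22 changed sign under an alternative that tested it. The salivary median of 0.095, which has no test, changed sign with Ucp1 as a covariate (-0.234), without null replicate 2 (-0.142) and without the 2 wild-type arrays of low Ucp1 (-0.20). Settings that moved no count of null stomach calls by over 1.5 times were quantile normalization, equal array medians, an offset of 16 on the linear scale, the filter at the 60th percentile, no filter, 1 fit over all 30 arrays, no trend, the replicate block and Ucp1 as a covariate; under these the median there lay between -0.403 and -0.345, and without single arrays between -0.417 and -0.316. In kidney, the 1 lower probe set became 0 with no filter, the fit over all arrays, no trend, or Gapdh or Ucp1 as a covariate, 2 with the 60th percentile and 4 with equal medians. The 33 lower in stomach became 0 with the Gapdh gap, 8 with Alb and 0 without wild-type replicates 2 and 3, whose Alb was high. In liver, the 5 lower became 11 in the fit over all arrays, 0 with the Gapdh gap and 1 with Ucp1, and the 2 higher 0 with either. In salivary tissue, the 1 lower became 0 with no filter, no trend, any of the 3 covariates or without the 2 wild-type arrays of low Ucp1, and the 1 higher 0 with equal medians, no trend, Alb, Ucp1 or without those arrays; the fit over all arrays gave 3 lower and 3 higher. The brain median became 0.0906 with Alb. On average over tissues, the 22 lower became 36 with Ucp1, 12 without kidney, 6 without stomach, 10 without liver and 39 without salivary tissue, and the 1 higher became 0 with equal medians, without stomach or without salivary tissue; the 16 that differed between tissues became 8 with Ucp1, 6 without stomach and 9 without liver. In wild-type tissue, the 1 lower in kidney became 2 with the offset, the 60th percentile or quantile normalization and 7 with equal medians, the 2 higher in stomach 4 with quantile normalization, and the 20 higher in liver 32 with equal medians. The cause of these changes was not tested; the alternatives without arrays or tissues rest on fewer samples. Leaving out these 2 stomach or 2 salivary arrays was chosen after seeing the data.

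Leaving out single arrays gave 0 to 6 lower in kidney, 20 to 33 lower and 0 to 1 higher in stomach (20 without wild-type replicate 3, 21 without null replicate 3), 2 to 12 lower and 1 to 2 higher in liver, and 0 to 1 lower and 0 to 1 higher in salivary tissue. In wild-type tissue it gave 16 to 28 lower in brain, 7 to 30 higher and 0 to 4 lower in kidney, 1 to 8 higher and 5 to 13 lower in stomach, 12 to 26 higher in liver, and 5 to 16 higher and 7 to 26 lower in salivary tissue.

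Replicate numbers pair samples only by number. With the replicate block, lower probe sets in kidney were 0 and in salivary tissue 0, higher ones in salivary tissue 0, the average gave 14 lower, 8 differed between tissues, and 2 were lower in wild-type kidney; it changed no other count by over 1.5 times.

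Of the 22 calls given by the naming rule, 21 missed the threshold with the Gapdh gap, 11 with Ucp1, 10 with Alb, 8 with the replicate block, and 0 with quantile normalization or the offset.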
